A study of Caenorhabditis elegans with 8 samples.

Results

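The lysozyme genes of *C. elegans* described here are *lys-1* (Y22F5A.4), *lys-2* (Y22F5A.5), *lys-3* (Y22F5A.6), *lys-4* (F58B3.1), *lys-5* (F58B3.2), *lys-6* (F58B3.3), *lys-8* (C17G10.5), *ilys-1* (C45G7.1), *ilys-2* (C45G7.2) and *ilys-3* (C45G7.3). They were chosen by gene identifier, as 10 of the 45461 features in the expression table, and all 10 were among the 21372 features with a count above 0 that were tested. RNA was measured by sequencing of polyadenylated RNA from 4 strains, with 2 biological replicates per strain and about 150 very young adults picked per sample. All strains were grown at 22.5 °C. The mutant strains were *cyp-36A1(lf); egl-9(lf)*, which carries *cyp-36A1(gk824636)* with *egl-9(sa307)* and is called the *cyp-36A1* double mutant; *egl-9(lf) hif-1(lf)*, which carries *egl-9(sa307)* with *hif-1(ia4)* and is called the *hif-1* double mutant; and *egl-9(lf)*, which carries *egl-9(sa307)* alone. The wild-type strain N2 carried none of these alleles. All 3 mutants thus lack *egl-9* function through 1 allele, and no single mutant of *hif-1* or *cyp-36A1* was among the 8 libraries. EGL-9 is the prolyl hydroxylase that marks the hypoxia-inducible transcription factor HIF-1 for degradation, so HIF-1 is constitutively active when *egl-9* is lost, and CYP-36A1 is a cytochrome P450 enzyme. The comparisons ask which lysozyme transcripts differ when HIF-1 is active, and which of those differences remain without *hif-1* or without *cyp-36A1*.

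Lysozymes cleave the peptidoglycan of bacterial cell walls. In *C. elegans*, which eats bacteria, they act in digestion and in defense of the intestine, where many of them are expressed. The *lys* genes encode lysozymes related to those of protists, and the *ilys* genes encode invertebrate-type lysozymes. *lys-1* and *lys-8* are known as genes induced by bacterial infection, *lys-8* also as a target of the DBL-1 (TGF-β-like) pathway, and *ilys-3* encodes a lysozyme active against Gram-positive bacteria. The genes lie in clusters: in the order of protein-coding genes of the RefSeq annotation (WBcel235), *lys-1* to *lys-3* are neighbors on chromosome V, and *lys-4* to *lys-6* and *ilys-1* to *ilys-3* are 2 groups of neighbors on chromosome IV, with 0 other protein-coding genes inside any of the 3 groups. *lys-8* lies apart on chromosome II. The authors aligned reads to an older build (ce10), so no coordinates are given.

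The smallest library held 11925027 expected counts and the largest 22269111; both were wild-type libraries. Targeted genes were checked in CPM, counts scaled to library size: *hif-1* was at 45.2 and 43.5 CPM in *hif-1* double mutant libraries, against 161 and 143 CPM in *egl-9(lf)* libraries. *cyp-36A1* was at 4.78 and 19.4 CPM in *cyp-36A1* double mutant libraries, against 29.4 and 55.0 CPM in *egl-9(lf)* libraries. That difference was not called, and wild-type libraries were at 5.74 and 8.92 CPM, so this level alone does not report the loss of function. *egl-9* RNA was at 87.6 and 101 CPM in *egl-9(lf)* libraries, against 27.1 and 25.9 CPM in wild-type libraries, so its level does not report the loss of the protein. Libraries are of whole animals, in which fewer cells of a type and less RNA per cell cannot be told apart.

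Nearly all reads of these 10 genes came from *lys-1*, *lys-8*, *lys-2* and *lys-4*. Over the 8 libraries, *lys-1* had 73638 counts in total, *lys-8* had 18639, *lys-2* had 11278 and *lys-4* had 2662, whereas the other 6 genes had between 1 and 135 counts. Levels are given in FPKM, which divides fragments by transcript length and library total, as the authors deposited them. *lys-1*, the most abundant of the 10, was at 633 and 591 FPKM in the *cyp-36A1* double mutant, 445 and 581 FPKM in the *hif-1* double mutant, 738 and 846 FPKM in *egl-9(lf)* and 472 and 473 FPKM in the wild type. Both *egl-9(lf)* libraries were above all 6 others, and the *hif-1* double mutant libraries spread around the wild-type pair. *lys-2* was at 78.05 and 76.8 FPKM in the *cyp-36A1* double mutant, 54.2 and 88.3 FPKM in the *hif-1* double mutant, 184 and 179 FPKM in *egl-9(lf)* and 53.8 and 47.5 FPKM in the wild type. Again the *egl-9(lf)* pair stood above the rest, and the *cyp-36A1* double mutant pair lay inside the spread of the *hif-1* double mutant pair. *lys-4* was at 31.6 and 28.6 FPKM in the *cyp-36A1* double mutant, 17.2 and 17.5 FPKM in the *hif-1* double mutant, 51.7 and 60.2 FPKM in *egl-9(lf)* and 13.4 and 13.7 FPKM in the wild type. For *lys-4* the libraries of the 4 strains did not overlap, and the *cyp-36A1* double mutant lay between the other 2 mutants. *lys-8* was at 185 and 158 FPKM in the *cyp-36A1* double mutant, 126 and 152 FPKM in the *hif-1* double mutant, 168 and 175 FPKM in *egl-9(lf)* and 131 and 148 FPKM in the wild type. Its *egl-9(lf)* libraries lay between the 2 *cyp-36A1* double mutant libraries, and its *hif-1* double mutant and wild-type libraries overlapped.

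**Figure D1:**
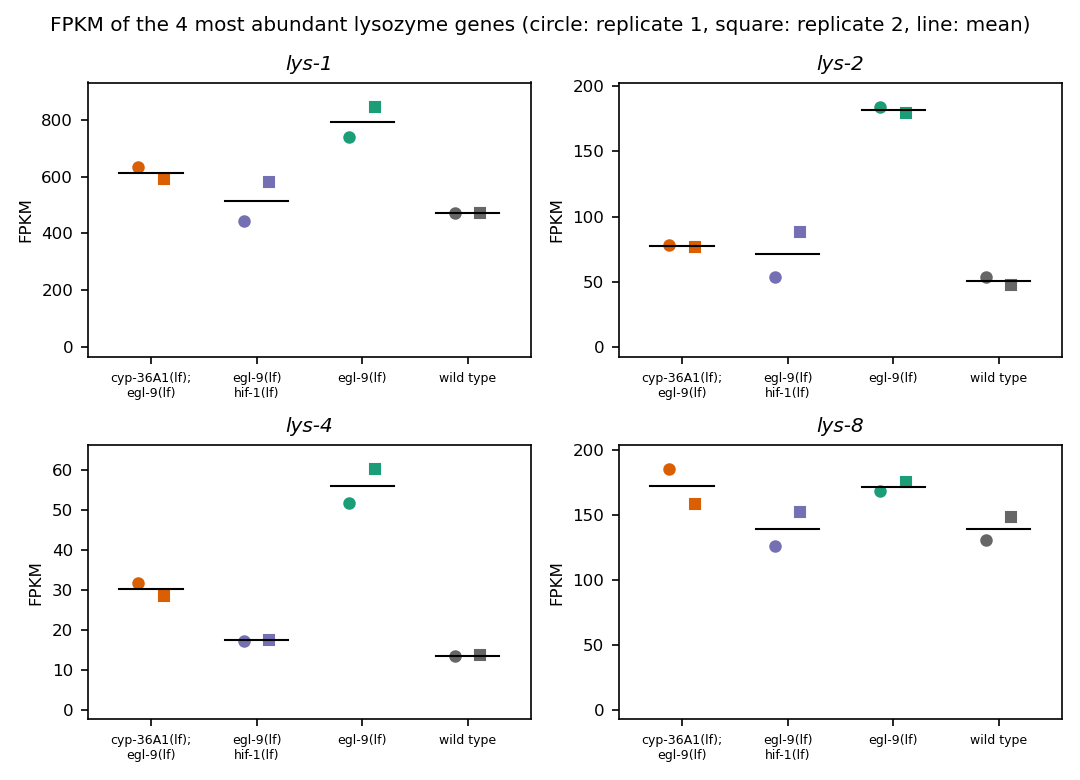
FPKM (vertical axis, linear and including 0) of *lys-1*, *lys-2*, *lys-4* and *lys-8* in the 4 strains (horizontal axis); the circle is replicate 1, the square replicate 2 and the line their mean. The *egl-9(lf)* points of *lys-1*, *lys-2* and *lys-4* lie above those of every other strain (for *lys-4*, 51.7 and 60.2 FPKM), whereas those of *lys-8* do not stand apart.

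In *egl-9(lf)* mutants, *lys-4*, *lys-2* and *lys-1* rose relative to the wild type. *lys-4* was 3.94-fold higher (log2 fold change 1.98, SE 0.15, edgeR quasi-likelihood test, adjusted p = 5.7e-06), *lys-2* was 3.41-fold higher (1.77, SE 0.19, adjusted p = 0.0001) and *lys-1* was 1.60-fold higher (0.68, SE 0.13, adjusted p = 0.0054). The 95% intervals of the log2 fold changes were 1.64 to 2.31 for *lys-4*, 1.35 to 2.19 for *lys-2* and 0.39 to 0.97 for *lys-1*. *lys-8* did not pass the test, with a log2 fold change of 0.24 and an interval of -0.06 to 0.53 (adjusted p = 0.31). With *ilys-2*, described among the low genes, 4 of the 10 lysozyme genes were called higher and 0 lower, against 4.97% of all tested features called higher and 8.31% called lower. The median log2 fold change of the 10 genes was 1.25, against 0 over all tested features. Both medians include features with very few counts. Over the 6 genes that pass filterByExpr, an edgeR filter for low counts, it was 0.89, against 0.006 over all features that pass. The calls for *lys-4* and *lys-2* held without any 1 library. That for *lys-1* was lost without wild-type replicate 1 (adjusted p = 0.073), wild-type replicate 2 (0.055) or *egl-9(lf)* replicate 2 (0.068), and its log2 fold change was then 0.67, 0.68 and 0.56.

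In *hif-1* double mutants, *lys-4*, *lys-2* and *lys-1* fell relative to *egl-9(lf)*. *lys-4* had a log2 fold change of -1.61 (SE 0.15, edgeR adjusted p = 2.7e-05), *lys-2* one of -1.26 (SE 0.19, adjusted p = 0.00077) and *lys-1* one of -0.54 (SE 0.13, adjusted p = 0.017). *lys-8* had a value of -0.22, with an interval of -0.51 to 0.08 (adjusted p = 0.40). With *lys-3*, a low gene described later, 4 of the 10 genes were called lower and 0 higher, against 4.25% and 8.86% of all tested features. The median over the 10 genes was -0.90, and -0.58 with *ilys-3*, which had no count in the double mutants, set to the limit its counts allow. Over all tested features the median was 0. For the 6 genes passing filterByExpr it was -0.53. This comparison and that with the wild type share the *egl-9(lf)* libraries. The *lys-1* call was lost without *hif-1* double mutant replicate 1 (log2 fold change -0.34, adjusted p = 0.090) or *egl-9(lf)* replicate 2 (-0.43, adjusted p = 0.17). The *lys-2* and *lys-4* calls held without any 1 library, with log2 fold changes of -1.69 to -0.94 and -1.68 to -1.48.

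Relative to the wild type, no lysozyme gene among the 10 was called in *hif-1* double mutants, where only 0.215% of all tested features were called in either direction. At an unadjusted p under 0.05 there were 2 of the 10, *lys-2* and *lys-4*, and DESeq2 called 0. The log2 fold changes and their 95% intervals were 0.51 (0.09 to 0.92) for *lys-2*, 0.37 (0.01 to 0.73) for *lys-4*, 0.13 (-0.16 to 0.42) for *lys-1* and 0.02 (-0.27 to 0.32) for *lys-8*. The *lys-2* value rested largely on 1 library of the double mutant. It was 0.83 without *hif-1* double mutant replicate 1, and then passed (edgeR adjusted p = 0.043), and 0.08 without replicate 2. The median over the 10 genes was 0.25, and 0.44 over the 6 that pass filterByExpr.

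In *cyp-36A1* double mutants, *lys-2* and *lys-4* fell relative to *egl-9(lf)*. *lys-2* had a log2 fold change of -1.16 (SE 0.19, interval -1.57 to -0.75, edgeR adjusted p = 0.0059) and *lys-4* one of -0.82 (SE 0.14, interval -1.13 to -0.51, adjusted p = 0.0091). These were 2 of the 10 genes called lower and 0 called higher, against 0.903% and 0.664% of all tested features. *lys-1* had a value of -0.30, with an interval of -0.59 to -0.01 (adjusted p = 0.61), and *lys-8* a value of 0.08, with an interval of -0.22 to 0.37 (adjusted p = 0.98). The median over the 10 genes was -0.71, or -0.64 with *ilys-2* and *ilys-3* set to the limit their counts allow. For the 6 genes passing filterByExpr it was -0.46. The *lys-2* call was lost without *cyp-36A1* double mutant replicate 1 (adjusted p = 0.077) or replicate 2 (0.072), at log2 fold changes of -1.15 and -1.14. The *lys-4* call was lost without *cyp-36A1* double mutant replicate 1 (log2 fold change -0.88, adjusted p = 0.059), its replicate 2 (-0.75, 0.077) or *egl-9(lf)* replicate 2 (-0.70, 0.12). With the replicate number as a block, 570 features were called in place of 335, and the calls of the 10 genes did not change.

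*lys-4* nevertheless stayed above the wild type in the *cyp-36A1* double mutant. It was 2.23-fold higher (log2 fold change 1.15, SE 0.16, interval 0.81 to 1.50, edgeR adjusted p = 0.00076), and this call held without any 1 library. With *lys-5*, described among the low genes, 2 of the 10 genes were called higher and 0 lower, against 4.72% and 7.47% of all tested features. The median was 0.21 over the 10 and 0.49 over the 6 that pass filterByExpr. *lys-2* had a log2 fold change of 0.61, with an interval of 0.19 to 1.03 (adjusted p = 0.059). With the replicate number as a block this value was 0.60 and passed, at an adjusted p of 0.039, as it did with DESeq2 (0.016) and with filterByExpr (0.046). *lys-1* had a value of 0.37 (interval 0.08 to 0.66, adjusted p = 0.095) and *lys-8* one of 0.31 (interval 0.02 to 0.61, adjusted p = 0.17). Both *lys-2* and *lys-1* passed without either *hif-1* double mutant library, which belongs to neither strain compared. With each library left out in turn, their log2 fold changes were 0.53 to 0.70 and 0.30 to 0.43.

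Between the double mutants, *lys-4* was higher in the *cyp-36A1* double mutant than in the *hif-1* double mutant (log2 fold change 0.78, SE 0.15, interval 0.45 to 1.12, edgeR adjusted p = 0.0048), also without any 1 library. *lys-5* was the other gene called, which makes 2 of the 10 higher and 0 lower, against 3.95% and 8.25% of all tested features. The median was 0.17 over the 10 and 0.27 over the 6 that pass filterByExpr. *lys-2* had a value of 0.10, with an interval of -0.31 to 0.51, and *lys-1* one of 0.24, with an interval of -0.05 to 0.53. Ordered by level, *lys-4* thus ran from *egl-9(lf)* through the *cyp-36A1* double mutant and the *hif-1* double mutant to the wild type, with each neighboring pair passing the test except the last. *lys-2* and *lys-1* had the same order of means. For *lys-2*, neither the 2 double mutants nor the *hif-1* double mutant and the wild type passed as different. For *lys-1* no neighboring pair in that order passed the test. Without *hif-1* double mutant replicate 2, the library with more of both RNAs, the double mutants passed as different for *lys-2* (log2 fold change 0.53, adjusted p = 0.037) and *lys-1* (0.48, adjusted p = 0.046).

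**Figure D2:**
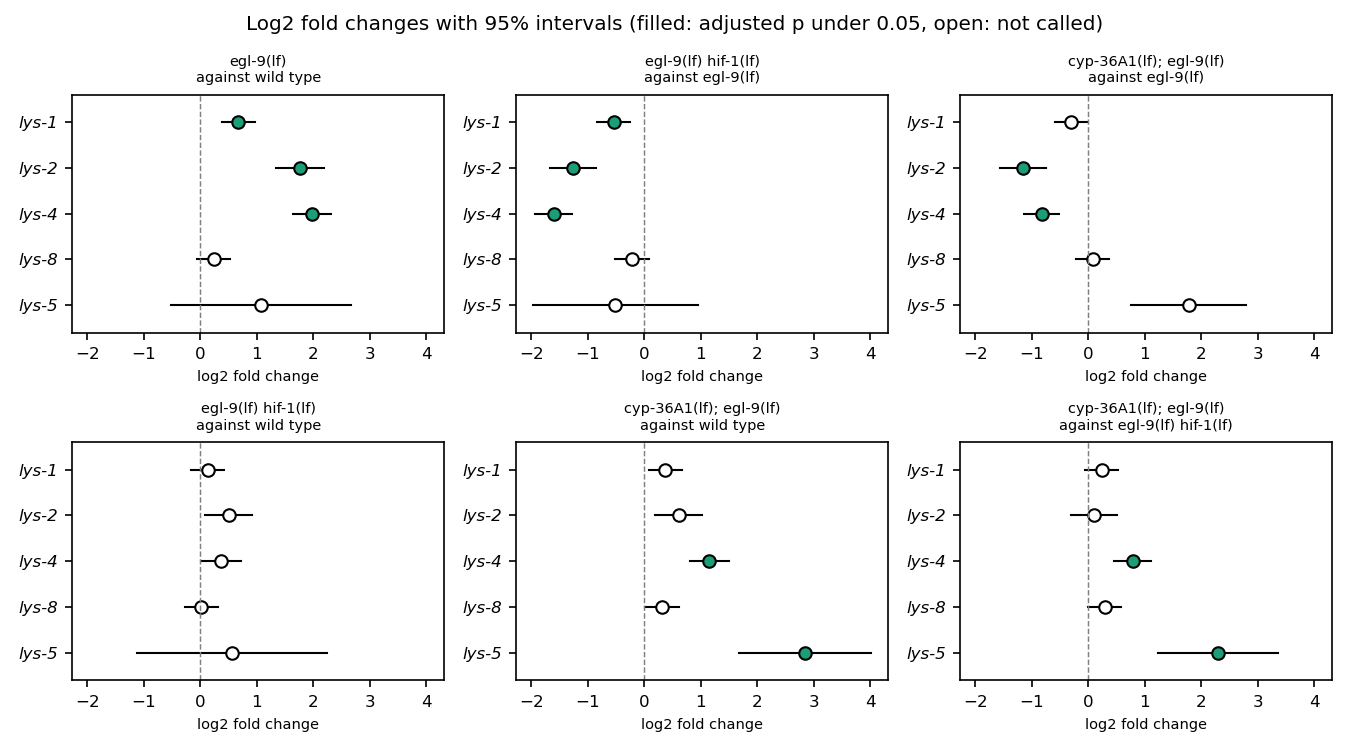
Log2 fold change (horizontal axis) of *lys-1*, *lys-2*, *lys-4*, *lys-8* and *lys-5* in the 6 comparisons, 1 panel per comparison, with 95% intervals as bars; a filled point passed the edgeR test at an adjusted p under 0.05. *lys-4* passes in 5 of the 6 panels, and *lys-8* in none, with values from -0.22 to 0.31. The *lys-8* interval leaves out 0 in the *cyp-36A1* double mutant against the wild type (0.02 to 0.61).

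Within each group of neighboring genes, the copies differed greatly in level, and the authors' counting divided reads between similar genes. Expected counts of *lys-1*, *lys-4*, *lys-5* and *lys-6* were not whole in 8 of 8 libraries, those of *lys-8* in 4 and those of *lys-2* in 1, so the division of reads among such genes is uncertain. Summing the expected counts of neighbors before the test, an alternative chosen after seeing the data, removes any division inside a group, but not one with genes outside it. The sum of *lys-4* to *lys-6* had a log2 fold change of 1.91 in *egl-9(lf)* against the wild type (edgeR adjusted p = 5.9e-06), -1.49 in the *hif-1* double mutant against *egl-9(lf)* (4.1e-05) and -0.72 in the *cyp-36A1* double mutant against *egl-9(lf)* (0.019). The sum of *lys-1* to *lys-3* had values of 0.83 (0.0017), -0.65 (0.0060) and -0.43 (0.24) in the same 3 comparisons. These sums consist mostly of *lys-1* and *lys-4* reads and so say little about the other genes, and the expected counts of *lys-3* were whole in all libraries.

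*lys-5* followed another pattern than its neighbor *lys-4*. It had 35.98 and 25.56 expected counts in the *cyp-36A1* double mutant, 7.72 and 4.14 in the *hif-1* double mutant, 9.26 and 5.89 in *egl-9(lf)* and 6.95 and 1.36 in the wild type. Scaled as FPKM, *lys-5* was at 2.68 and 2.32 in the *cyp-36A1* double mutant, 0.71 and 0.32 in the *hif-1* double mutant, 0.86 and 0.67 in *egl-9(lf)* and 0.46 and 0.17 in the wild type. The *cyp-36A1* double mutant libraries were above all others, the *egl-9(lf)* pair was above the wild-type pair, and the *hif-1* double mutant pair overlapped both. *lys-5* was higher in the *cyp-36A1* double mutant than in the wild type (log2 fold change 2.85, SE 0.53, interval 1.68 to 4.02, edgeR adjusted p = 0.0050) and than in the *hif-1* double mutant (2.29, SE 0.49, interval 1.23 to 3.36, adjusted p = 0.0083). Against *egl-9(lf)* its value of 1.78 (interval 0.76 to 2.80) did not pass (adjusted p = 0.11). The call against the wild type was lost without wild-type replicate 1, at a log2 fold change of 4.24 (adjusted p = 0.0504). The call against the *hif-1* double mutant was lost without *cyp-36A1* double mutant replicate 1 (2.18, 0.062) or *hif-1* double mutant replicate 2 (1.78, 0.0999), and with DESeq2 (0.12). As a share of the *lys-4* expected counts of the same library, those of *lys-5* were 8.14% and 7.79% in the *cyp-36A1* double mutant, 3.98% and 1.75% in the *hif-1* double mutant, 1.59% and 1.07% in *egl-9(lf)* and 3.28% and 1.18% in the wild type. The share was highest in the *cyp-36A1* double mutant, whereas *lys-4* was highest in *egl-9(lf)*. Because *lys-5* is the numerator of the share, a high share where *lys-5* is high is no separate result. The part of read division between the 2 genes was not tested.

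*lys-6* and *lys-3* had few reads. *lys-6* had 13.2 and 15.2 expected counts in the *cyp-36A1* double mutant, 27.5 and 18.3 in the *hif-1* double mutant, 18.1 and 17.5 in *egl-9(lf)* and 20.6 and 4.05 in the wild type. Scaled as FPKM, it was at 0.97 and 1.35 in the *cyp-36A1* double mutant, 2.49 and 1.38 in the *hif-1* double mutant, 1.65 and 1.96 in *egl-9(lf)* and 1.33 and 0.49 in the wild type. On that scale the wild-type pair overlapped the *cyp-36A1* double mutant pair and lay below the others, but *lys-6* passed in none of the 6 comparisons (0 at an unadjusted p under 0.05, and 0 with DESeq2). *lys-3* had 8 and 7 counts in the *cyp-36A1* double mutant, 3 and 3 in the *hif-1* double mutant, 28 and 6 in *egl-9(lf)* and 7 and 7 in the wild type. It was called lower in the *hif-1* double mutant than in *egl-9(lf)* (log2 fold change -2.64, SE 0.76, edgeR adjusted p = 0.039). Without *egl-9(lf)* replicate 1, which held 28 of its counts, the value was -1.29 (adjusted p = 0.63). The call held only when *egl-9(lf)* replicate 2 was the library left out, and the adjusted p was 0.060 to 0.63 without any 1 of the other 7 libraries. Against the wild type, *lys-3* in *egl-9(lf)* had a value of 1.43 (adjusted p = 0.17), which passed only without *egl-9(lf)* replicate 2 (2.01, adjusted p = 0.045).

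The invertebrate-type genes *ilys-1*, *ilys-2* and *ilys-3* were near or at 0 in most libraries. *ilys-1* had 1 count in all, in wild-type replicate 1. *ilys-2* had 0 and 0 counts in the *cyp-36A1* double mutant, 0 and 5 in the *hif-1* double mutant, 14 and 7 in *egl-9(lf)* and 1 and 0 in the wild type. Most of its counts thus fell in the *egl-9(lf)* pair. The 21 counts in *egl-9(lf)* against 1 in the wild type make a depth-adjusted ratio of 23.8, with an exact 95% counting interval of 3.83 to 985, and the call (edgeR adjusted p = 0.034) was lost without any 1 of the 4 libraries compared (0.055 to 0.23), with the 3 *ilys* genes summed (0.057) and with DESeq2 (0.21). In the *cyp-36A1* double mutant, with no *ilys-2* count, RNA was at least 8.32-fold lower than that of the *egl-9(lf)* libraries, taking 3 counts over both libraries as the limit, but the gene did not pass (adjusted p = 0.075). It did pass with either *hif-1* double mutant library left out (0.043), with library size alone (0.049) and with the default edgeR options (0.0073). *ilys-3*, the member of this group studied for its bactericidal activity, had no count in either double mutant, and *egl-9(lf)* libraries held 3 and 1 against 1 and 0 in wild-type libraries, which is too few for a difference to be detectable at this depth.

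**Figure D3:**
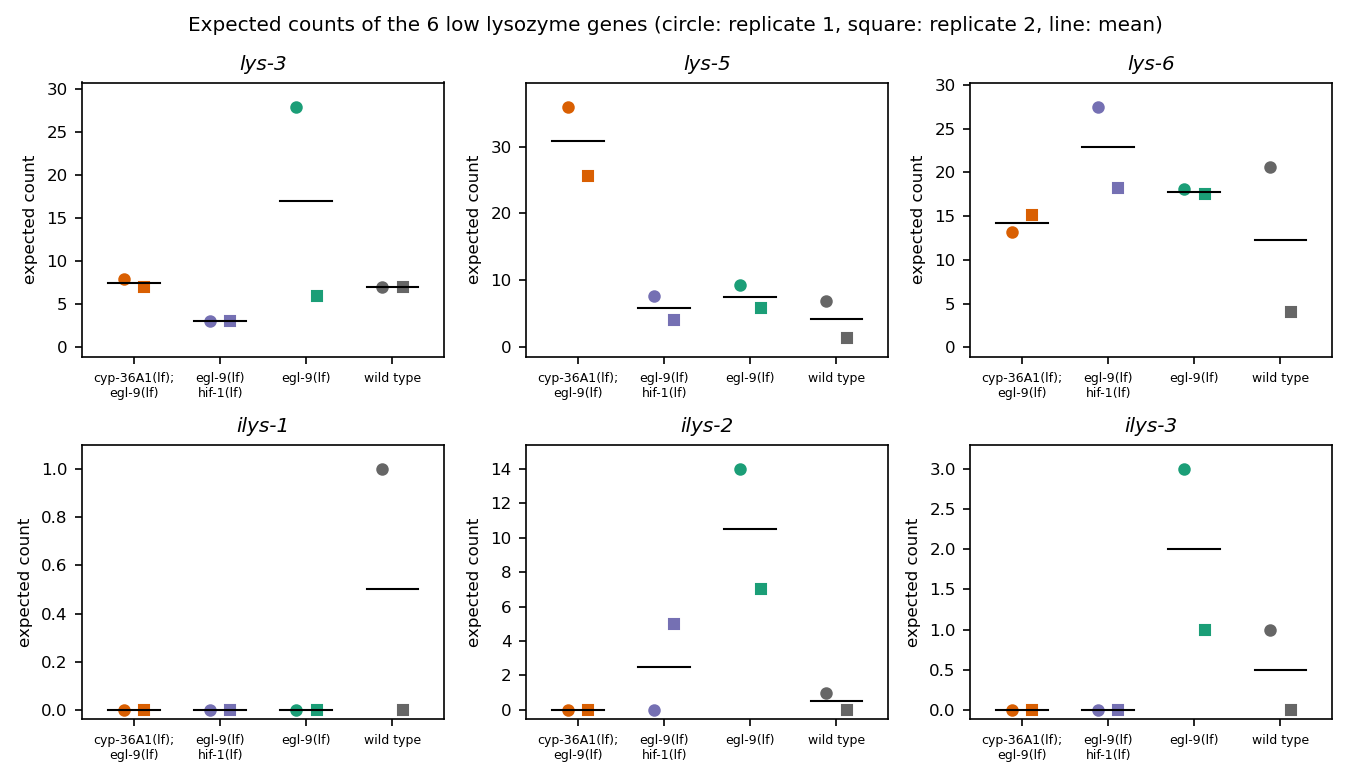
Expected counts per library (vertical axis, not scaled for depth) of *lys-3*, *lys-5*, *lys-6*, *ilys-1*, *ilys-2* and *ilys-3* in the 4 strains; the circle is replicate 1, the square replicate 2 and the line their mean. *lys-5* is highest in the *cyp-36A1* double mutant, with 35.98 and 25.56 expected counts, and *ilys-2* in *egl-9(lf)*, with 14 and 7.

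RefSeq gives *lys* or *ilys* symbols to 6 further genes, and 2 of them were abundant. *lys-7* (C02A12.4), a lysozyme gene known as a target of the FOXO factor DAF-16, was at 39.0 and 33.0 FPKM in the *cyp-36A1* double mutant, 66.3 and 106 FPKM in the *hif-1* double mutant, 262 and 330 FPKM in *egl-9(lf)* and 25.7 and 29.1 FPKM in the wild type. It rose 10.4-fold in *egl-9(lf)* against the wild type (log2 fold change 3.38, SE 0.23, edgeR, interval 2.88 to 3.87, adjusted p = 1.4e-06), against the 3.94-fold rise of *lys-4* in the same comparison; the difference between the genes was not tested. It fell relative to *egl-9(lf)* in the *hif-1* double mutant (-1.70, SE 0.21, adjusted p = 0.00022) and in the *cyp-36A1* double mutant (-2.96, SE 0.22, adjusted p = 1.3e-05). Unlike *lys-4*, *lys-7* was lower in the *cyp-36A1* double mutant than in the *hif-1* double mutant (-1.26, SE 0.21, adjusted p = 0.0023). It was higher in the *hif-1* double mutant than in the wild type (1.68, adjusted p = 0.0074), a call lost without wild-type replicate 1 (1.57, 0.27) or replicate 2 (1.76, 0.11).

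*ilys-5* (F22A3.6), an invertebrate-type gene, ran the opposite way. It was at 1164 and 963 FPKM in the *cyp-36A1* double mutant, 998 and 1082 FPKM in the *hif-1* double mutant, 229 and 286 FPKM in *egl-9(lf)* and 1017 and 1056 FPKM in the wild type. The *egl-9(lf)* pair was far below the other 6 libraries, which overlapped among strains. *ilys-5* fell in *egl-9(lf)* against the wild type (log2 fold change -2.08, SE 0.14, edgeR adjusted p = 1.1e-06) and was higher than in *egl-9(lf)* both in the *hif-1* double mutant (2.09, adjusted p = 1.0e-06) and in the *cyp-36A1* double mutant (2.11, adjusted p = 3.3e-06). Against the wild type the double mutants had values of 0.04 (interval -0.24 to 0.32) for the *cyp-36A1* double mutant and 0.02 (interval -0.27 to 0.30) for the *hif-1* double mutant. *ilys-4* was at 3.25 to 4.70 FPKM in the 8 libraries, *lys-10* had at most 5 counts in any library, and *lys-9* and *ilys-6* were also near 0; these 4 passed in none of the comparisons (at an unadjusted p under 0.05, *lys-10* in 2; with DESeq2, 0).

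**Figure D4:**
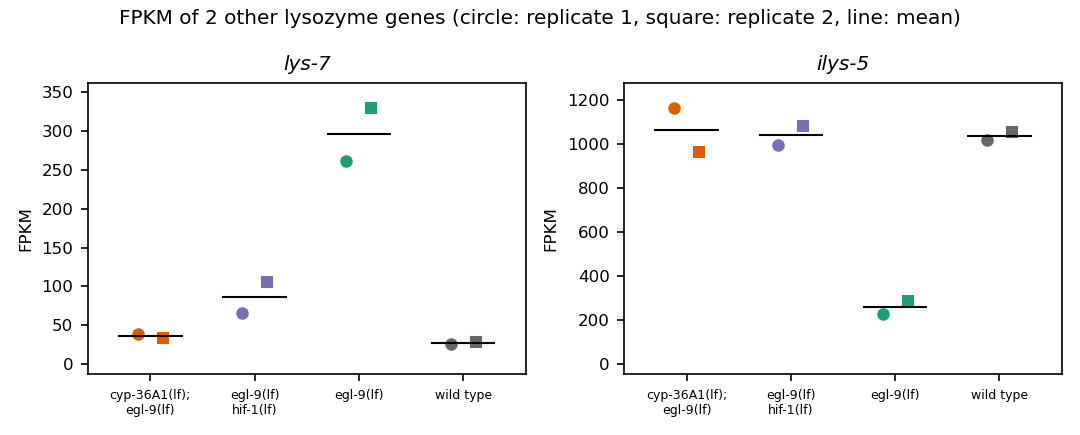
FPKM (vertical axis, linear and including 0) of *lys-7* and *ilys-5* in the 4 strains; the circle is replicate 1, the square replicate 2 and the line their mean. *lys-7* is highest in *egl-9(lf)* (262 and 330 FPKM), where *ilys-5* is lowest (229 and 286 FPKM).

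Genes known to regulate lysozymes or intestinal immunity were examined in the same fit. Of 12 such genes, among them *pmk-1*, *sek-1*, *nsy-1* and *tir-1* of the p38 MAP kinase pathway, *atf-7*, *daf-16*, *hlh-30*, *dbl-1* and the intestinal GATA factor *elt-2*, 1 passed as higher in *egl-9(lf)* than in the wild type, where 4.97% of all tested features did. This was *skn-1*, which encodes a transcription factor of oxidative stress defense and was at 243 and 248 CPM in *egl-9(lf)*, against 187 and 179 CPM in the wild type (log2 fold change 0.42, edgeR adjusted p = 0.026). *skn-1* was at 183 and 160 CPM in the *hif-1* double mutant and passed as lower than in *egl-9(lf)* (-0.52, adjusted p = 0.0080). The first call was lost without any 1 of the 4 libraries compared (adjusted p up to 0.21), and the second without either *egl-9(lf)* library or without *hif-1* double mutant replicate 2 (up to 0.093). *sma-3*, a SMAD factor of the DBL-1 pathway, passed as lower in the *cyp-36A1* double mutant, at 5.24 and 4.72 CPM, than in the wild type, at 8.58 and 8.15 CPM (-0.75, adjusted p = 0.030), a call lost without any 1 of those 4 libraries (up to 0.25). In each of the other 3 comparisons none of the 12 passed and 1 had an unadjusted p under 0.05; DESeq2 called 0 in 2 of them and *skn-1* between the double mutants (adjusted p = 0.048).

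Markers of the intestine were examined because many lysozymes are known to be expressed in that tissue. Their summed level over 6 genes (*elt-2*, *elt-7*, *ges-1*, *act-5*, *ifb-2* and *pept-1*) was 734 and 771 CPM in the *cyp-36A1* double mutant, 703 and 1065 CPM in the *hif-1* double mutant, 630 and 812 CPM in *egl-9(lf)* and 788 and 876 CPM in the wild type. *act-5* supplied most of each sum, with 523 of the 788 CPM in wild-type replicate 1, so the sums say little about the other markers. The strains overlapped, and the highest library, *hif-1* double mutant replicate 2, also held more *lys-1*, *lys-2* and *lys-7* RNA than its replicate. The part of intestinal content in that spread was not tested. In *egl-9(lf)* against the wild type, none of the 6 passed (2 at an unadjusted p under 0.05, *elt-7* and *act-5*; DESeq2 called *act-5*, lower at an adjusted p of 0.011). In the *hif-1* double mutant against *egl-9(lf)*, *act-5* passed as higher (log2 fold change 0.65), and between the double mutants *ges-1* did (0.49). Of 4 markers each for pharynx, body-wall muscle, hypodermis, neurons and the germ line, only the germ-line genes *mex-5* (0.42) and *puf-5* (0.48) passed in *egl-9(lf)* relative to wild type, and both calls were lost without any 1 of the 4 libraries compared. In the other comparisons, *mex-5* (0.40) and *puf-5* (0.53) were higher in the *cyp-36A1* double mutant than in the wild type, and *puf-5* (0.38) was higher in it than in the *hif-1* double mutant. The muscle gene *myo-3* was lower in the *hif-1* double mutant than in *egl-9(lf)* (-0.58). It was higher in the *cyp-36A1* double mutant than in the *hif-1* double mutant (0.49). Mean levels of the other muscle markers, *unc-54*, *unc-27* and *lev-11*, went the other way in both comparisons, without passing. For *unc-54* they were 3195 CPM in *egl-9(lf)*, 3458 CPM in the *hif-1* double mutant and 2934 CPM in the *cyp-36A1* double mutant. The cuticle collagen gene *rol-6* was called lower in the *hif-1* double mutant (0 and 0 counts) than in *egl-9(lf)* (49 and 0 counts), where it rested on replicate 1. Each of these marker calls was lost without at least 1 library. Summed germ-line markers were at 2351 and 2540.45 CPM in the *cyp-36A1* double mutant, 2348 and 2073 CPM in the *hif-1* double mutant, 2417 and 2545 CPM in *egl-9(lf)* and 1936 and 2065 CPM in the wild type. They were lowest in the wild-type pair, but *hif-1* double mutant replicate 2 was close to it. Means of *pgl-1*, *mex-5* and *puf-5* were lowest in the wild type, whereas that of *glh-1* was not. *glh-1* had means of 306 CPM in the *cyp-36A1* double mutant, 386 CPM in the *hif-1* double mutant, 324 CPM in *egl-9(lf)* and 371 CPM in the wild type. The part of these markers in the lysozyme results was not tested.

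The genes whose RNA most resembled that of *lys-4* over the 8 libraries, by Pearson's r of log2(CPM + 1) among 9061 features with a mean of at least 5 FPKM, were F17E9.4 (r = 0.991), F54F7.3 (0.990) and *nssp-85* (0.987). The r of *lys-4* was 0.92 with *lys-1*, 0.92 with *lys-2*, 0.75 with *lys-7*, 0.67 with *lys-8* and -0.81 with *ilys-5*. For *lys-2* the nearest were K08D8.5 (0.993), *col-117* (0.985) and K04F1.9 (0.982). These are descriptions over libraries that share 4 strain means.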

How the data were processed

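The authors aligned single-end reads of polyadenylated RNA to ce10 with Bowtie 1.0.1 and deposited RSEM 1.2.15 expected counts, which divide reads shared by similar genes, and FPKM values, which are scaled by transcript length and library total. Tool versions are from the submitters' processing notes, which also name BWA 0.7.5a, SAMtools 0.1.19 and bedtools 2.17.0. Of expected counts above 0, 36.1% were not whole (beyond 0.001), so they were rounded for count tests.

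Strains and replicates came from the labels. All 8 libraries were fitted in one model (R 4.3.3, edgeR 4.0.16, TMM scaling, glmQLFit with legacy=FALSE, glmQLFTest), with Benjamini-Hochberg adjustment over the 21372 features whose rounded counts were not all 0. Calls were made at an adjusted p under 0.05. The default options gave infinite prior degrees of freedom (7.80 in the fit used) and are an alternative. Each SE is the fold change divided by the root of its F statistic (log2 scale). Intervals on count ratios cover counting error only. An exact permutation test of 2 against 2 libraries cannot go below p = 0.333. The pipeline was tested on simulated data.

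Named genes were the 10 members, other RefSeq genes named *lys-* or *ilys-*, 12 regulators, targeted genes and tissue markers, and the 3 nearest genes to each of the 2 members called most often. Members and lists were chosen with earlier results of these data known.

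The 4 strains use the same replicate numbers. Departures from strain means correlated between same-numbered libraries in all 6 pairs of strains (r = 0.111 to 0.273 over 14311 genes). The main fit held no term for the replicate number. A fit with that number as a block was an alternative. Other alternatives were DESeq2 1.42.0, median-ratio factors, library size alone, filterByExpr (6 of the 10 genes passed), a fit to the 2 strains compared, an adjusted p under 0.01, each library left out, and limma 3.58.1 on log2(FPKM + 0.5), with pseudocounts of 0.1 and 1, for features of at least 1 FPKM in at least 2 libraries. Locus sums were added after the data were seen.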

Additional observations from a re-analysis of the deposited data

How the results depend on the processing

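No call among the lysozyme genes changed direction. The number of the 10 genes called was 2 to 4 with each library left out in turn comparing *egl-9(lf)* with the wild type (4 with all), 2 to 3 for the *hif-1* double mutant against *egl-9(lf)* (4), 0 to 3 for the *cyp-36A1* double mutant against *egl-9(lf)* (2), 0 to 1 for the *hif-1* double mutant against the wild type (0), 1 to 4 for the *cyp-36A1* double mutant against the wild type (2) and 1 to 3 between the double mutants (2). The lone remaining library of a strain was then assumed to vary like the others. The default quasi-likelihood options called 4 for the *cyp-36A1* double mutant against *egl-9(lf)*, 4 for it against the wild type and 1 for the *hif-1* double mutant against the wild type. For the *hif-1* double mutant against *egl-9(lf)*, 2 were called in the fit to the 2 strains compared and 2 at an adjusted p under 0.01, and DESeq2 called 1 between the double mutants. Over 23 combinations of gene and comparison called under at least 1 setting, 380 alternative values stayed on their side of the threshold, 25 newly passed and 33 no longer passed.

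With the replicate block, the only call among the 10 genes to change was *lys-2* in the *cyp-36A1* double mutant against the wild type (log2 fold change 0.60, adjusted p = 0.039).

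Over all features, the calls in *egl-9(lf)* versus wild type were 2840, 1506 at an adjusted p under 0.01 and as few as 1119 without 1 library; 37.4% of the 2840 were higher, and 49.3% under limma on log2(FPKM + 0.5). The corresponding counts for the *hif-1* double mutant against *egl-9(lf)* were 2802, 1735 and 1662. For the *cyp-36A1* double mutant against *egl-9(lf)* they were 335, 211 and 192, with 840 under the default options and 570 under the block. For the *hif-1* double mutant against the wild type they were 46, 27 and 15, with 151 under the default options, and 39.1% of the 46 were higher, against 29.0% under limma. For the *cyp-36A1* double mutant against the wild type they were 2606, 1150 and 717, and between the double mutants 2609, 1454 and 1305. The cause of these shifts was not tested. With 2 libraries per strain and at most 135 counts in total, the 6 low genes can show only large differences.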

Other observations

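The make-up of the RNA of the 10 listed genes also varied by strain. The 10 genes together took 0.0854% and 0.0784% of expected counts in the *cyp-36A1* double mutant, 0.0590% and 0.0777% in the *hif-1* double mutant, 0.105% and 0.115% in *egl-9(lf)* and 0.0618% and 0.0628% in the wild type. *lys-1* made up 64.2% to 70.2% of their summed FPKM in the 8 libraries. Sums over the 6 further genes with *lys* or *ilys* symbols were lowest in *egl-9(lf)*, although *lys-7*, which is among them, was highest there. Those sums were 495 and 620 FPKM in *egl-9(lf)* and 1047 and 1089 FPKM in the wild type. In the *cyp-36A1* double mutant they were 1208 and 999.7 FPKM, and in the *hif-1* double mutant 1068 and 1192 FPKM. Outside *egl-9(lf)*, most of each sum was *ilys-5*, with 1017 of the 1047 FPKM in wild-type replicate 1. The rise of the summed RNA of the 10 genes in *egl-9(lf)*, where 4 of them were called higher, is thus not one of all lysozyme RNA. The ratio of *lys-2* to *lys-1* FPKM was 0.123 and 0.130 in the *cyp-36A1* double mutant, 0.122 and 0.152 in the *hif-1* double mutant, 0.249 and 0.212 in *egl-9(lf)* and 0.114 and 0.101 in the wild type, so the neighbors did not change in proportion in the *egl-9(lf)* libraries.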
